A study of Homo sapiens with 6 samples.

Results

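The miRNAs described here come from the paralogous miR-23, miR-27 and miR-24 clusters on chromosomes 19 and 9, and are 10 of the 2565 miRNA probes on the array. They were chosen by name from these clusters, with results of the same arrays already known, so the counts of changed members are a description and no test over the list was made. The arrays were made from Panc-1 cells, an established human line of pancreatic ductal adenocarcinoma (PDAC). RNA from control cells (0 ng/mL of TGF-β) was on 3 arrays, and RNA from cells kept for 72 h with 10 ng/mL of TGF-β was on 3 others. Each array was read in 1 colour. The labels do not say that the 3 samples of a group came from separate cultures, so p-values measure only the spread between these samples, which may be technical. Each group was hybridised on a slide of its own, which means that an effect of the slide and an effect of TGF-β cannot be told apart. With so few arrays, an exact permutation test cannot give a 2-sided p under 0.1.

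TGF-β is a secreted cytokine that can drive the epithelial–mesenchymal transition (EMT), in which epithelial cells lose their contacts and gain motility. A miRNA is cut from a hairpin precursor whose 5p and 3p arms can each give a mature strand. As a rule 1 of these, the guide, is loaded into the silencing complex and the other, the passenger, is degraded. The guide finds its target mRNAs mainly through its seed, bases 2 to 8. The clusters on chromosomes 19 and 9 are copies of each other, each with a miR-23, a miR-27 and a miR-24 hairpin, and in each the 3p arm is the usual guide. miR-23a and miR-23b are known as repressors of glutaminase, miR-27a and miR-27b as inhibitors of adipocyte differentiation, and miR-24 as a repressor of cell cycle genes.

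All 10 members matched a mature sequence in RefSeq, and the positions are those of its GRCh38.p14 annotation, since no build is named in the array files. The hairpins on chromosome 19 span chr19:13836287-13836659 (373 bp, minus strand), inside the interval of the lncRNA gene MIR23AHG. Those on chromosome 9 span chr9:95085208-95086088 (881 bp, plus strand), inside the interval of the protein-coding gene AOPEP. The 3p arms are shown first because they carry the paralogy, with the seed in capitals, 5′ to 3′.
miR-23a-3p (chromosome 19): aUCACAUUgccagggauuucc
miR-23b-3p (chromosome 9): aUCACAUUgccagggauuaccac
miR-27a-3p (chromosome 19): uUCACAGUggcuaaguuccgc
miR-27b-3p (chromosome 9): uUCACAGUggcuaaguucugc
miR-24-3p (both chromosomes): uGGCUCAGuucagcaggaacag
Counted from 1 at the 5′ end, miR-23a-3p and miR-23b-3p differ by U19A over the 21 bases of the shorter one, and miR-27a-3p and miR-27b-3p differ by C19U. The files do not give how well the probes tell such pairs apart. miR-24-3p is the same molecule from either chromosome, so its probe cannot assign it to a cluster.

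The 5p arms are shown because they separate the clusters better than the 3p arms do.
miR-23a-5p (chromosome 19): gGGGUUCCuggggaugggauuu
miR-23b-5p (chromosome 9): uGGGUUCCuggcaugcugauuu
miR-27a-5p (chromosome 19): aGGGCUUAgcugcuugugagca
miR-27b-5p (chromosome 9): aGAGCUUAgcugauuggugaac
miR-24-2-5p (chromosome 19): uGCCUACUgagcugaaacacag
miR-24-1-5p (chromosome 9): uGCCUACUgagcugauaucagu
Between the chromosomes, these arms differ at 7 positions in the miR-23 pair, 8 in the miR-27 pair and 6 in the miR-24 pair. The change G3A lies in the seed of the miR-27 5p arms, whereas the seeds of the other 5p pairs are shared. miR-23b-5p is not among the 10 members and is given for comparison. The miR-24 hairpins show how different 5p arms accompany an identical 3p arm, which is in capitals.
MIR24-2 hairpin (chr19:13836287-13836359, minus strand): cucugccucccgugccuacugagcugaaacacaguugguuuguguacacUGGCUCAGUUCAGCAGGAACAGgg
MIR24-1 hairpin (chr9:95086021-95086088, plus strand): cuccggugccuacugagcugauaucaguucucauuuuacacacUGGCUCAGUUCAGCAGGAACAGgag

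**Figure D1:**
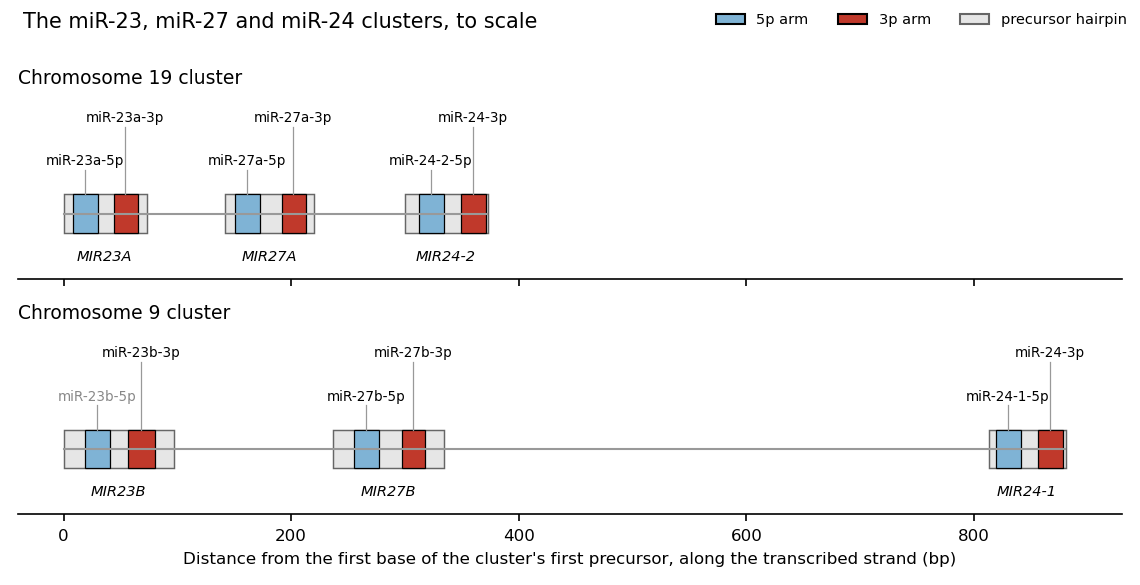
Map of the chromosome 19 and chromosome 9 clusters, drawn to scale along the transcribed strand, with the distance in bp from the first base of the first hairpin on the x axis. Both run miR-23, miR-27, miR-24, and the chromosome 9 cluster (881 bp) is longer than that on chromosome 19 (373 bp); miR-23b-5p, in grey, is not among the 10 members.

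All 10 members were detected on all 6 arrays, where detection means a signal above the mean of the array's blank spots plus 2 SDs. On the same arrays 1282 of all miRNAs were detected throughout, and 1457 passed detection in all samples of the control group, the TGF-β group or both and were tested. The detection limits were 19.5 to 22.8 intensity units. The 3p arms were far above them, with signals from 1317 units (miR-27b-3p) to 6592 units (miR-23b-3p). The dimmest member, miR-23a-5p, gave 22.6 to 28.3 units, or 6.29 to 10.0 blank SDs over the blank mean. The other arm of the chromosome 9 miR-23 hairpin, miR-23b-5p, gave 20.2 to 23.9 units and was not detected on control replicate 3. Signals of different probes are not compared as amounts, because probes differ in how strongly they bind.

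Log2 values of signal above the blank mean were quantile normalized, which gives every array the same distribution, and compared with limma over the 1457 miRNAs. Of the 10 members, hsa-miR-23a-3p and hsa-miR-24-2-5p were called higher with TGF-β (2 members, adjusted p under 0.05), and none was called lower. An unadjusted p under 0.05 was found for 3 members, beside 202 of the 1457 tested miRNAs. Among all tested miRNAs 58 were called (3.98%), of which 38 were higher (2.61%) and 20 lower. The groups did not overlap, with TGF-β higher, for 3 members, compared with 8.85% of all tested miRNAs. The same values were also scaled by the median of the miRNAs detected on all arrays, which moves each array by a constant and keeps the spacing of its brightest probes. With median scaling 1 member, miR-24-2-5p, was called higher, compared with 2.54% of all tested miRNAs, and 5 members had an unadjusted p under 0.05, beside 182 of 1457. TGF-β was then above control on all arrays for 5 members, compared with 10.4% of all. The median log2 fold change of the members was 0.18 with quantile normalization and 0.28 with median scaling, beside -0.01 and 0.01 for all tested miRNAs. The member median was 0.09 without background correction and 0.39 in the deposited values. A median over all miRNAs was not computed for these settings. Every member's change was higher in the deposited values than with median scaling, as for miR-27b-5p (0.09 against -0.01) and miR-24-2-5p (0.58 against 0.48). The 0.39 is therefore not read as a larger response of the members. In RNA from bulk cultures, a change in the share of cells that hold a miRNA and a change in its amount per cell cannot be told apart.

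**Figure D2:**
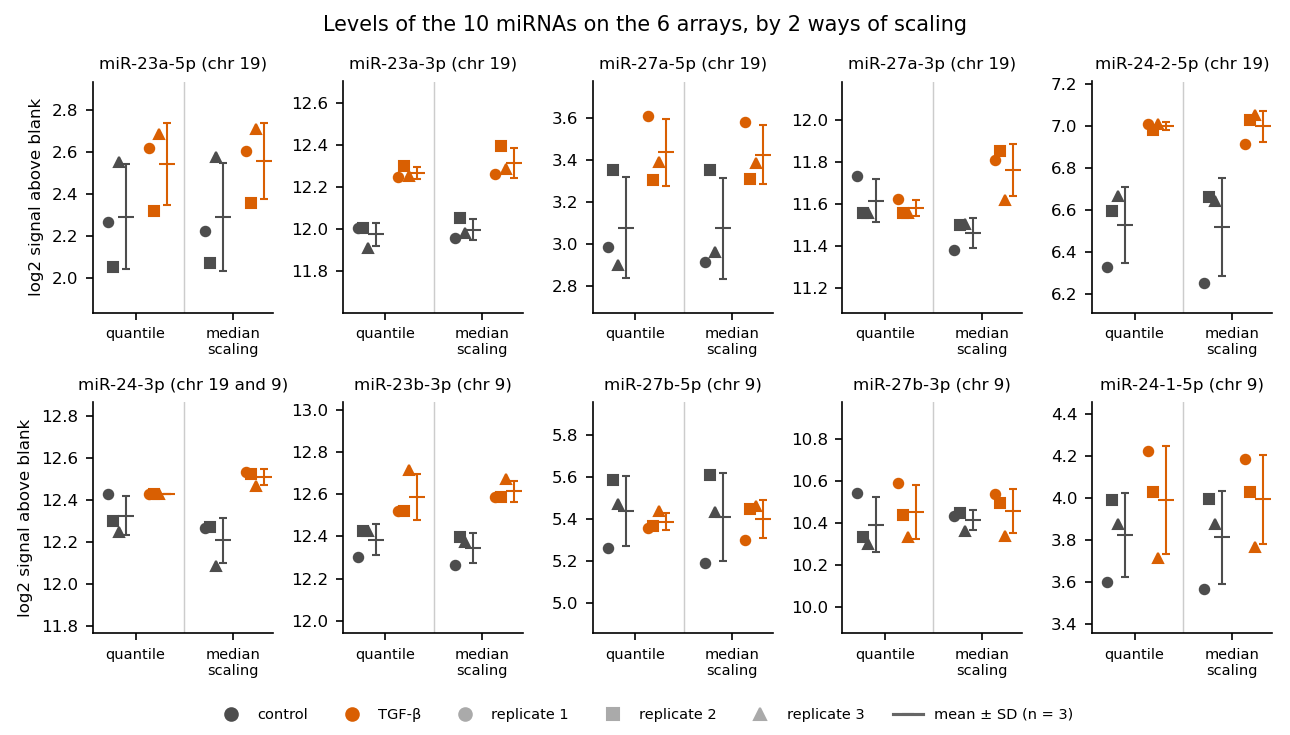
Log2 signal above the blank mean (y axis) of each of the 10 miRNAs on the 3 control and 3 TGF-β arrays, after quantile normalization (left of each panel) and after median scaling (right), with mean ± SD (n = 3). The TGF-β arrays of miR-23a-3p, miR-24-2-5p and miR-23b-3p lay above all control arrays in both, while those of miR-27a-3p and miR-24-3p did so with median scaling alone.

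miR-23a-3p, the guide arm of the first hairpin on chromosome 19, gave signals of 3761, 3967 and 4748 units without TGF-β and 4610, 5597 and 5041 with it. These signals, before any scaling, overlapped between the groups, where control replicate 3, the highest control, also had the highest median miRNA signal of the 6 arrays (24.1 units, against 20.4 to 23.3). After quantile normalization its log2 values were 12.00, 12.01 and 11.91 without TGF-β and 12.25, 12.30 and 12.25 with it. All TGF-β arrays were then above all control arrays. The log2 fold change was 0.29 (SE 0.048, adjusted p = 0.00483 from limma), a 1.23-fold level with a 95% confidence interval of 1.14 to 1.32. Median scaling gave a like change of 0.32 with a wider SE of 0.11, and the call was lost (adjusted p = 0.143 from limma).

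miR-24-2-5p, the arm opposite miR-24-3p in the chromosome 19 hairpin, had the largest log2 fold change among the members after quantile normalization. Its signals were 89.9, 113.4 and 138.0 units without TGF-β and 131.9, 154.1 and 154.2 with it. After quantile normalization the control arrays were at 6.32, 6.59 and 6.66 and the TGF-β arrays at 7.01, 6.98 and 7.01, which set them apart from every control array. The log2 fold change was 0.47 (SE 0.097, adjusted p = 0.0189 from limma), or 1.39-fold (95% confidence interval 1.19 to 1.61). Median scaling gave 0.48 and kept the call (adjusted p = 0.0232 from limma). Its counterpart on chromosome 9, miR-24-1-5p, had values that overlapped between the groups. The log2 fold change of miR-24-1-5p was 0.16 (SE 0.16, adjusted p = 0.739 from limma), and from 0.05 (without TGF-β replicate 1) to 0.30 (without TGF-β replicate 3) with 1 array left out. It was 0.07 without background correction and 0.29 in the deposited values.

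The calls of these members depended on single arrays. Without TGF-β replicate 2, neither was called, although the log2 fold changes were 0.25 for miR-23a-3p (adjusted p = 0.0824 from limma) and 0.48 for miR-24-2-5p (adjusted p = 0.0980). miR-24-2-5p was also not called without control replicate 2 (0.50), TGF-β replicate 1 (0.47) or TGF-β replicate 3 (0.47). Over 27 alternatives both stayed above 0 in all, with miR-23a-3p called in 11 and miR-24-2-5p in 14. Alternatives that changed only the floor, filter, block or fit left both fold changes as they were. Both calls were also lost without normalization between arrays, without the expression trend in limma, with all probes tested and with the methods' t-test. Another correction took the scanner's local background in place of the blank spots and, at the same time, the normexp model of limma (offset 50) in place of subtraction. With this local normexp correction no miRNA was called, and the effects of its steps were not separated. The log2 fold changes of miR-24-2-5p and miR-23a-3p were then 0.12 (SE 0.19) and 0.33 (SE 2.16). Beside them were 1.98 (SE 2.09) for miR-24-3p, 1.36 (SE 1.95) for miR-23b-3p and 0.63 (SE 1.68) for miR-27a-3p. miR-24-1-5p had 0.07 (SE 0.064). In the authors' deposited values neither was called, with log2 fold changes of 0.42 for miR-23a-3p and 0.58 for miR-24-2-5p.

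**Figure D3:**
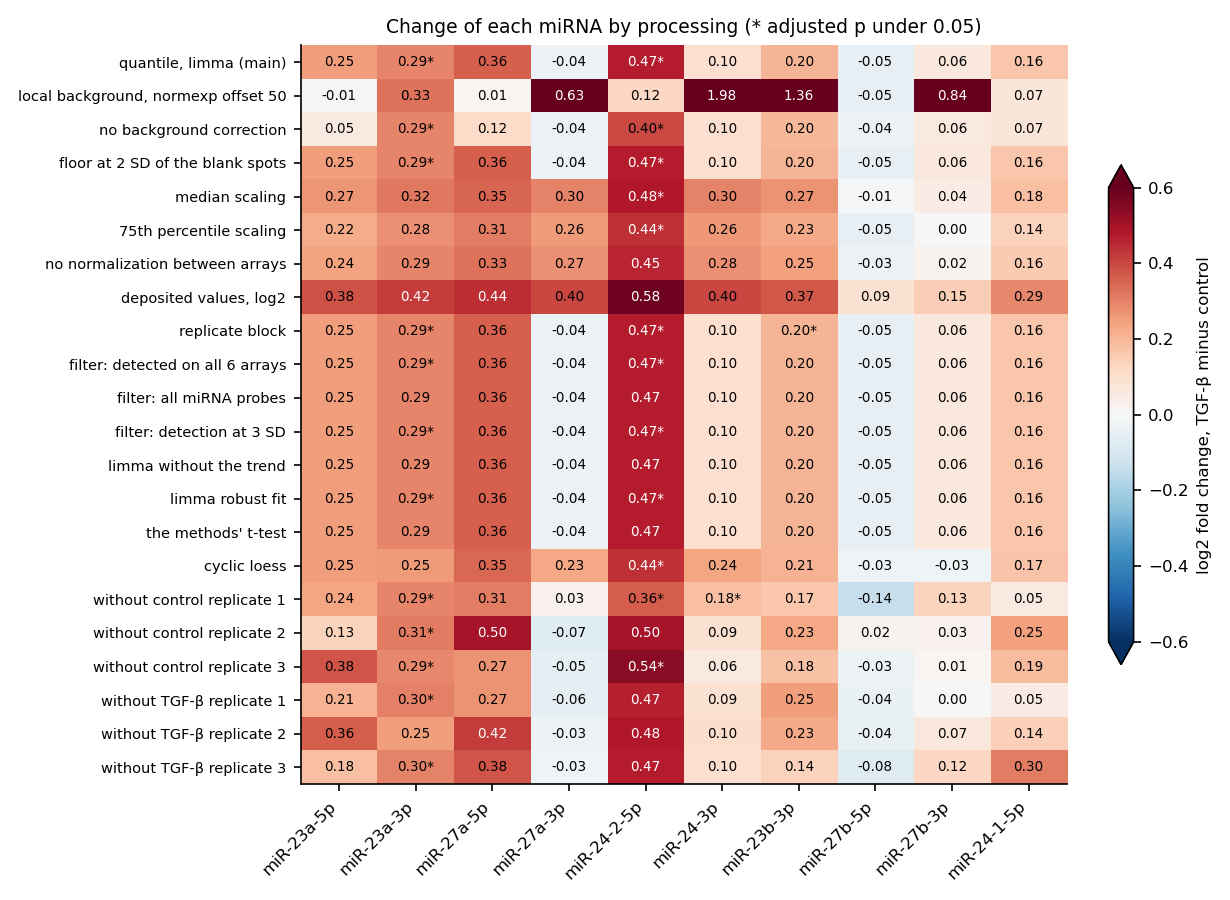
Log2 fold change (TGF-β minus control, colour and printed value) of the 10 miRNAs (columns) by processing (lines); an asterisk marks an adjusted p under 0.05. miR-23a-3p and miR-24-2-5p were above 0 in every line shown and lost the asterisk in several. With quantile normalization of all arrays miR-27a-3p was below 0, except after the local normexp correction, where it was above 0. It was also above 0 with quantile normalization of 5 arrays without control replicate 1, and with median scaling, cyclic loess and the deposited values.

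For hsa-miR-27a-3p, the miR-27 guide of chromosome 19, the direction depended on the scaling. With quantile normalization it also depended on 1 array and on the background correction. Its signals were 2529, 2712 and 3423 units without TGF-β and 3373, 3853 and 3183 with it. Quantile normalization gave 11.73, 11.56 and 11.56 without TGF-β and 11.62, 11.56 and 11.56 with it, and the groups overlapped. Median scaling gave 11.38, 11.50 and 11.51 without TGF-β and 11.81, 11.85 and 11.62 with it, and every TGF-β array was higher. The log2 fold change was -0.04 (SE 0.058, adjusted p = 0.870 from limma) in the first case and 0.30 (SE 0.11, adjusted p = 0.179) in the second. It passed the threshold in neither. With quantile normalization it was 0.03 without control replicate 1, and below 0 with any other array left out. After the local normexp correction, which was also followed by quantile normalization, it was 0.63 (SE 1.68).

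hsa-miR-24-3p, the guide shared by both clusters, was above 0 in all 27 alternatives, with a size that depended on the scaling. A change of the floor, filter, block or fit alone left its fold change as it was. It gave 4665, 4616 and 5103 units without TGF-β and 5567, 6121 and 5706 with it, with no overlap already in the signals. After quantile normalization its value was 12.43 on all 3 TGF-β arrays and also on control replicate 1, and the other control arrays were at 12.30 and 12.25. With median scaling the control arrays were at 12.27, 12.27 and 12.09 and the TGF-β arrays at 12.53, 12.52 and 12.46, all above control. The log2 fold change was 0.10 (SE 0.053, adjusted p = 0.439 from limma) with quantile normalization and 0.30 (SE 0.11, adjusted p = 0.184) with median scaling. It was called with quantile normalization only when control replicate 1 was left out, at 0.18 (adjusted p = 0.0392 from limma). Without control replicate 3 it was 0.06 (adjusted p = 0.694 from limma).

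These probes are among the brightest on the array. Quantile normalization replaces a signal by the mean, over arrays, of the signals at the same rank. On each array 15 to 17 miRNA probes were brighter than miR-27a-3p, 9 to 11 brighter than miR-24-3p, 10 to 14 brighter than miR-23a-3p and 7 to 10 brighter than miR-23b-3p. The part of the ranks in the difference between the scalings was not tested. Other miRNAs of like brightness were examined, a choice made after seeing the data. At brightness ranks 11 to 20, which hold 3 members, 5 of the 7 other miRNAs were above 0 with median scaling (median log2 fold change 0.10, range -0.12 to 0.55) and 2 of 7 with quantile normalization (median -0.12). At ranks 1 to 10, which hold 1 member, 1 of the 9 others was above 0 with median scaling (median -0.07) and 6 of 9 with quantile normalization (median 0.00).

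On chromosome 9, the guide hsa-miR-23b-3p gave 4654, 5036 and 6231 units without TGF-β and 5766, 6404 and 6592 with it. Its quantile-normalized values were 12.30, 12.43 and 12.43 without TGF-β and 12.52, 12.52 and 12.71 with it. The groups were apart, but the change was not called (log2 fold change 0.20, SE 0.062, adjusted p = 0.138 from limma), and median scaling gave 0.27 (adjusted p = 0.253). It was called only with the replicate number as a block (adjusted p = 0.0304 from limma), and the labels do not say that the numbers pair the arrays. miR-27b-3p gave 1318, 1317 and 1557 units without TGF-β and 1406, 1516 and 1323 with it. The groups overlapped, and its log2 fold change was 0.06 (SE 0.082, adjusted p = 0.835 from limma), 0.04 with median scaling and -0.03 with cyclic loess. It was 0.84 (SE 1.49) with the local normexp correction and 0.15 in the deposited values. With 1 array left out it ran from 0.00 (without TGF-β replicate 1) to 0.13 (without control replicate 1). The 95% confidence interval of its fold was 0.921 to 1.18.

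The remaining 5p arms had wider intervals. miR-27a-5p, at 25.3 to 31.4 units, had a log2 fold change of 0.36 (SE 0.16, adjusted p = 0.360 from limma), and its groups overlapped through control replicate 2. miR-23a-5p had 0.25 (SE 0.19, adjusted p = 0.648), and from 0.13 (without control replicate 2) to 0.38 (without control replicate 3) with 1 array left out. Median scaling gave 0.35 for miR-27a-5p and 0.27 for miR-23a-5p. Without background correction the values were 0.12 and 0.05, and with the local normexp correction 0.01 and -0.01. miR-27b-5p, at 52.6 to 71.8 units, had -0.05 (SE 0.11, adjusted p = 0.905), -0.01 with median scaling and 0.09 in the deposited values. With 1 array left out it ran from -0.14 (without control replicate 1) to 0.02 (without control replicate 2). miR-23b-5p, the arm outside the members, had 0.72 (SE 0.37) near the detection limit, with overlapping groups. It passed the filter only because all TGF-β arrays detected it, and control replicate 3 was at the floor. Its p-value is therefore not given.

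**Figure D4:**
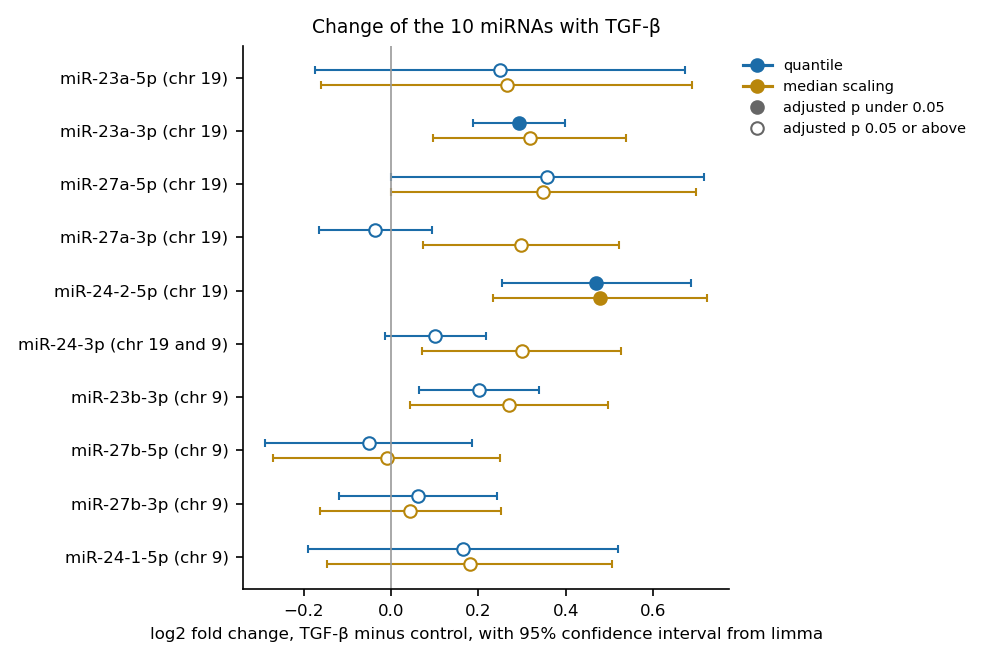
Log2 fold change (TGF-β minus control, x axis) of the 10 miRNAs with the 95% confidence interval from limma, after quantile normalization and after median scaling; filled points have an adjusted p under 0.05. The scalings differ for miR-27a-3p (-0.04 and 0.30) and miR-24-3p (0.10 and 0.30), and are close for the other members.

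Whether the clusters responded differently was asked within each array, as the log2 difference of the chromosome 19 probe minus its chromosome 9 paralog. Among members coded on chromosome 19 alone, the median log2 fold change was 0.29 (0.32 with median scaling) over 5 miRNAs. On chromosome 9 alone it was 0.11 with either scaling, over 4. The arms are not matched, since miR-23b-5p, the counterpart of miR-23a-5p, is not a member and is in neither the median nor the pairs. It had 0.72, and 0.84 with median scaling, near the detection limit, and was tested only through detection in the TGF-β group. The members behind these medians moved with the processing and with single arrays. With the local normexp correction those on chromosome 19 had 0.33, -0.01, 0.63, 0.01 and 0.12. Those on chromosome 9 had 0.07, 1.36, 0.84 and -0.05. Without background correction they were 0.29, 0.05, -0.04, 0.12 and 0.40 on chromosome 19. On chromosome 9 they were 0.07, 0.20, 0.06 and -0.04. Without TGF-β replicate 1, the chromosome 9 members had 0.05, 0.25, 0.00 and -0.04. In all 9 paralog and arm differences were examined, and none could pass 0.05 by exact permutation.

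The miR-27 5p arms were the only paralogs of the 4 pairs whose groups stayed apart with both scalings. miR-27a-5p minus miR-27b-5p was -2.27, -2.23 and -2.57 without TGF-β and -1.75, -2.06 and -2.04 with it. All TGF-β arrays were higher, a shift of 0.41 toward the chromosome 19 arm (exact permutation test, 2-sided p = 0.1). Median scaling left the groups apart, with a shift of 0.36. The shift was 0.15 without background correction (exact permutation test, p = 0.1) and 0.06 with the local normexp correction (p = 0.8 by the same exact test).

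The miR-27 3p arms changed direction with the scaling. miR-27a-3p minus miR-27b-3p shifted by -0.10 with quantile normalization, with overlap (exact permutation p = 0.3), and ran from -0.15 to -0.06 with 1 array left out. With median scaling it was 0.95, 1.05 and 1.15 without TGF-β and 1.27, 1.36 and 1.28 with it. That is a shift of 0.25 with the groups apart (exact permutation test, p = 0.1). A constant per array cancels in such a difference, so the value was 0.25 also without normalization and with 75th percentile scaling. The local normexp correction gave -0.21.

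The miR-24 5p arms, miR-24-2-5p minus miR-24-1-5p, shifted by 0.31, and 0.30 with median scaling, with overlapping groups (exact permutation test, p = 0.2 in both). Without background correction the shift was 0.32 (exact permutation test, p = 0.1). It was 0.17 without TGF-β replicate 3, 0.42 without TGF-β replicate 1 and 0.05 with the local normexp correction. miR-23a-3p minus miR-23b-3p shifted by 0.09, and 0.05 with median scaling, with overlapping groups (exact permutation test, p = 0.4 and 0.6). It was 0.02 without TGF-β replicate 2, 0.16 without TGF-β replicate 3 and -1.04 with the local normexp correction.

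**Figure D5:**
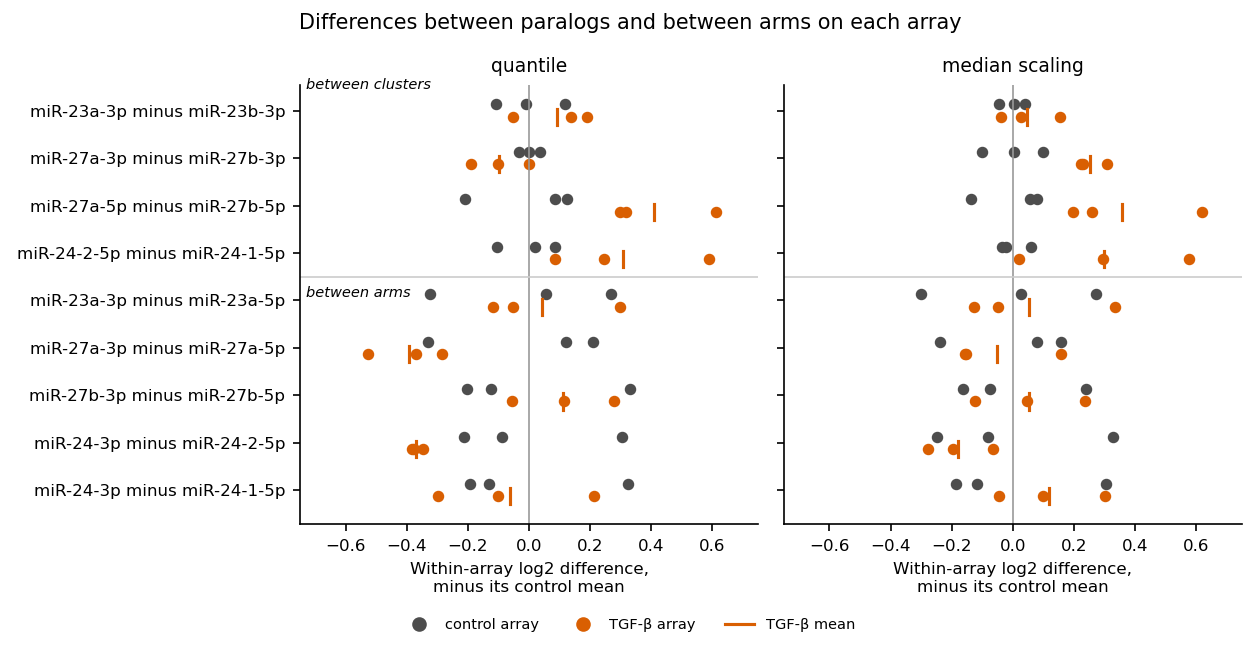
Within-array log2 differences between paralogs (top 4 rows) and between arms (lower 5 rows) on each array, minus the control mean of that difference (x axis), for quantile normalization and median scaling; the bar is the TGF-β mean. miR-27a-5p minus miR-27b-5p lay above control on all TGF-β arrays in both panels, and miR-27a-3p minus miR-27b-3p did so with median scaling alone.

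Between the arms, 3p minus 5p, most differences overlapped. miR-24-3p minus miR-24-2-5p was 6.10, 5.71 and 5.58 without TGF-β and 5.42, 5.45 and 5.42 with it. This was a shift of -0.37 toward the 5p arm with the groups apart (exact permutation test, p = 0.1). With median scaling it was -0.18 and the groups overlapped (p = 0.5 by the same exact test). It was also -0.18 with quantile normalization when control replicate 1 was left out, and 1.86, in the other direction, with the local normexp correction. miR-27a-3p minus miR-27a-5p shifted by -0.39 with overlapping groups, by -0.05 with median scaling, by -0.15 without background correction and by 0.62 with the local normexp correction. The difference of the miR-23a arms was 0.04, with an SD of 0.30 over the control arrays. It was 0.24 without background correction (exact permutation test, p = 0.1), 0.33 with the local normexp correction and -0.11 without TGF-β replicate 2. The miR-27b arms gave 0.11 (control SD 0.29), 0.27 without control replicate 1, 0.89 with the local normexp correction and 0.00 without control replicate 2. miR-24-3p minus miR-24-1-5p was -0.06, 0.12 with median scaling and 1.91 with the local normexp correction.

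Correlations between members over the arrays also depended on the scaling for many pairs. Over the 6 arrays, Pearson's r of miR-23a-3p with miR-27a-3p was 0.91 with median scaling and -0.19 with quantile normalization. For miR-23a-3p and miR-23b-3p r was 0.92 and 0.71, and for miR-23b-3p and miR-24-2-5p 0.96 and 0.87, and with median scaling these are the 3 highest of the 45 pairs. Between arms, r was 0.40 with median scaling and 0.37 with quantile normalization for miR-23a, 0.73 and -0.25 for miR-27a, and -0.23 and -0.77 for miR-27b. For miR-24-3p it was 0.69 and 0.35 with miR-24-2-5p, and 0.44 and -0.06 with miR-24-1-5p. These values are descriptions, and the points share slide and treatment. Outside the members, 1272 miRNAs detected on all arrays were searched for the quantile-normalized pattern most like each guide. The top of 1272 values over 6 arrays is high by selection, so the values below are descriptions too. Shared regulation was not tested. miR-23a-3p was most like miR-181c-5p (r = 0.98), miR-181d-5p (0.98) and miR-181a-3p (0.97). miR-23b-3p was most like miR-125a-5p (0.98), miR-5187-5p (0.97) and miR-6805-3p (0.97). For miR-24-3p they were miR-151b (0.97), miR-1234-3p (0.97) and miR-4713-5p (0.96), for miR-27a-3p miR-4463 (0.99), miR-4259 (0.98) and miR-7704 (0.97), and for miR-27b-3p miR-6510-5p (0.99), miR-4303 (0.98) and miR-92a-2-5p (0.95).

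The miRNA genes nearest to the chromosome 19 cluster are MIR181C and MIR181D, 38040 and 38216 bp from it on the opposite strand. The miR-181 family is known for its role in T cell signalling. miR-181d-5p had a log2 fold change of 1.20 (SE 0.10, adjusted p = 2.21e-05 from limma), miR-181c-5p 0.71 (SE 0.11, adjusted p = 0.00430) and miR-181c-3p 1.06 (SE 0.21, adjusted p = 0.0141). All 3 rose with median scaling too, and miR-181d-3p was not tested, since it was missed on control replicate 1 and TGF-β replicate 3 and so was not detected throughout either group. Near the chromosome 9 cluster, MIR6081 lies 19762 bp away and its miRNA was not tested either. MIR3074 is antisense to MIR24-1, and its 3p and 5p arms overlap miR-24-1-5p by 19 bases and miR-24-3p by 20. miR-3074-5p was not detected on any array, and miR-3074-3p had a log2 fold change of 0.09 (SE 0.28, adjusted p = 0.947 from limma). In all, 5 of these 8 neighbouring miRNAs were tested, miR-23b-5p only through detection in the TGF-β group. Of them 3 were called higher, beside 2.61% of all tested miRNAs. These 3 are arms of MIR181C and MIR181D. miR-181a-5p (1.19) and miR-181b-5p (1.28), which are not among these neighbours, were called higher too.

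Beyond the clusters, the only other array miRNA with the seed of a guide was miR-23c, among the 2253 of 2550 single-miRNA probes that matched a RefSeq sequence. It differs from miR-23b-3p by G14U and A22C over 22 bases. Its signals were 240.9 to 270.5 units on the 6 arrays, and its log2 fold change was -0.05 (SE 0.083, adjusted p = 0.889 from limma), -0.03 with median scaling. Its groups overlapped, unlike those of miR-23a-3p and miR-23b-3p; the difference between these probes' changes was not tested.

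Among 11 miRNAs commonly linked to TGF-β, 2 were called higher, miR-181a-5p (log2 fold change 1.19) and miR-181b-5p (1.28), and 1 lower, miR-10b-5p (-0.38). Of all 1457 tested miRNAs, 38 were called higher (2.61%) and 20 lower. With median scaling miR-10b-5p was not called (-0.33) and miR-143-3p was called higher (1.60). The signals of miR-143-3p lay near the detection limits, at 19.7, 21.4 and 26.0 units without TGF-β and 23.9, 35.3 and 26.5 with it. Of 6 epithelial miRNAs, the miR-200 family and miR-205, 2 were tested and neither was called by limma or had an unadjusted p under 0.05. Their signals were 21.5 to 28.6 units for miR-200a-3p and 24.3 to 31.0 for miR-200b-3p, and miR-141-3p was detected on no array.

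As a check of the labelled cell type, 5 miRNAs of the pancreatic lineage were examined, and miR-7-5p was the only one that could be tested (0.14, adjusted p = 0.669 from limma). The acinar miRNAs miR-217 and miR-216b-5p were detected on no array, miR-216a-5p on 2 and the islet miRNA miR-375 on 1. Of 6 blood cell miRNAs 4 were tested and none was called by limma. miR-451a and miR-223-3p were tested only through detection in the TGF-β group. An unadjusted p under 0.05 was found for 1, miR-486-5p, which was lower (-0.41, adjusted p = 0.217 from limma). The summed signal of all 6 above the blank mean was 25.6, 27.8 and 34.9 units without TGF-β and 27.1, 23.6 and 24.4 with it, and the brightest was miR-486-5p. The endothelial miR-126-3p was called lower (-0.32, adjusted p = 0.0411 from limma), though not with median scaling (-0.30, adjusted p = 0.127). Its signal above blank was 123.0, 130.2 and 156.6 units without TGF-β and 95.6, 113.5 and 116.9 with it. Of 4 muscle miRNAs 3 were called lower, miR-1-3p (-1.51), miR-133a-3p (-1.47) and miR-133b (-1.48), and miR-206 was not (0.05). Among all 1457 tested miRNAs 20 were called lower. With median scaling 3 muscle miRNAs were again called lower, beside 12 of 1457. Their summed signal above blank, of which miR-1-3p was the brightest, was 580.4, 660.1 and 825.0 units without TGF-β and 230.8, 284.1 and 233.9 with it. The part of these markers in the changes of the clusters was not tested.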

How the data were processed

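Total RNA from Panc-1 cells was labelled with Cy5 and hybridised to 3D-Gene miRNA arrays. The files deposited by the authors hold the scanner's median intensity for 3200 spots an array, and a table of processed intensities. That table was rebuilt to within rounding (0.500 units): the mean of 320 blank spots, less 5% at each end, was subtracted, values not above it by 2 SDs were left empty, and each column's median was set to 25.

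Here the trimmed blank mean was subtracted, values were floored at 1, log2-transformed and quantile normalized over 2565 miRNA probes, with 3 spots marked as unreliable left missing. limma 3.58.1 (R 4.3.3) was fitted with an intensity trend, with Benjamini-Hochberg adjustment over 1457 miRNAs. The scanner's local background rose with the spot's own signal, so it was used only in an alternative, with the normexp model of limma (offset 50). Within-array differences were tested by exact permutation. Named miRNAs were the members, their other arms, miRNAs sharing a guide's seed or within 100 kb, the 3 most correlated with each guide, and the lists given. Members and lists were chosen with earlier results of these data known. Figures were drawn with matplotlib 3.10.9.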

Additional observations from a re-analysis of the deposited data

How the results depend on the processing

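Over 27 alternatives, miR-23a-3p and miR-24-2-5p kept their direction in all, with the adjusted p from 0.00215 to 0.992 and from 0.00620 to 0.990. Where only the floor, filter, block or fit was changed, their fold changes did not move, so such settings do not test the direction. No background correction, the 2 SD floor, detection on all 6 arrays or at 3 SDs, and the robust fit kept both calls. miR-23a-5p lay 6.29 to 10.0 blank SDs over the blank mean, and its log2 fold change was 0.25, against 0.05 without background correction. The cause of the differences below was not tested.

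With the local background and normexp (offset 50), changed together, log2 fold changes were 0.33 (miR-23a-3p), -0.00630 (miR-23a-5p), 0.63 (miR-27a-3p) and 0.12 (miR-24-2-5p), with 0 miRNAs called, 0 higher and 0 lower, 0 members called and a member median of 0.22. Differences were -1.04 (miR-23a-3p minus miR-23b-3p), 0.62 (miR-27a arms), 1.86 (miR-24-3p minus miR-24-2-5p) and 1.91 (miR-24-3p minus miR-24-1-5p), with 0.33 for the miR-23a arms, 0.89 for the miR-27b arms, 0.06 and 0.05 for the miR-27 and miR-24 5p paralogs and -0.21 for the miR-27 3p paralogs. Without background correction the median was 0.0872 and miR-24-3p minus miR-24-1-5p 0.0285, with 0.15 for the miR-27 5p paralogs and 0.24 for the miR-23a arms.

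Median scaling gave 0.32 for miR-23a-3p and 0.30 for miR-27a-3p, 12 miRNAs called lower, 1 member called, a median of 0.28, 0.25 for miR-27a-3p minus miR-27b-3p and 0.12 for miR-24-3p minus miR-24-1-5p. For the 75th percentile these were 0.28 and 0.26, 1 member, median 0.24, then 0.25 and 0.12. Without normalization they were 0.29 and 0.27, with 0.45 for miR-24-2-5p, 35 miRNAs called, 8 lower, 0 members, median 0.26, then 0.25 and 0.12. The deposited values gave 0.42, 0.40 and 0.58, with 0.0910 for miR-27b-5p, 31 called, 4 lower, 0 members, median 0.39, then 0.25 and 0.11. A median over all miRNAs was not computed for the deposited values. Cyclic loess, chosen after seeing the data, gave 0.25 for miR-23a-3p, 0.23 for miR-27a-3p and -0.03 for miR-27b-3p, 1 member called, median 0.23, then 0.26 and 0.0647.

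The log2 fold changes of miR-23a-3p (0.29) and miR-24-2-5p (0.47) did not move, but neither was called, with all probes tested (19 called, 14 higher, 5 lower, 0 members), without the trend (32, 23 higher, 9 lower, 0 members) or by the methods' t-test (17, 12 higher, 5 lower, 0 members; 194 before adjustment).

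With 1 array left out, values ran from 0.25 to 0.31 for miR-23a-3p, -0.0710 to 0.0262 for miR-27a-3p, 0.0563 to 0.18 for miR-24-3p, 0.36 to 0.54 for miR-24-2-5p and -0.14 to 0.0223 for miR-27b-5p. They ran from 0.13 to 0.38 for miR-23a-5p, 0.27 to 0.50 for miR-27a-5p, 0.05 to 0.30 for miR-24-1-5p, 0.14 to 0.25 for miR-23b-3p and 0.00 to 0.13 for miR-27b-3p. The miR-23a arms ran from -0.11 to 0.18, and miR-24-3p minus miR-24-1-5p from -0.20 to 0.13. miR-24-3p minus miR-24-2-5p ran from -0.49 to -0.18, the miR-27a arms from -0.57 to -0.28 and the miR-27b arms from 0.00 to 0.27. Paralog differences ran from 0.02 to 0.16 (miR-23 3p), -0.15 to -0.06 (miR-27 3p), 0.30 to 0.48 (miR-27 5p) and 0.17 to 0.42 (miR-24 5p). Called miRNAs were 25 to 51, with 17 to 32 higher and 7 to 19 lower, and members called 0 to 3.

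With median scaling and control replicate 1, 2 or 3 left out, then TGF-β replicate 1, 2 or 3, in runs chosen after seeing the data, miR-23a-3p had 0.30, 0.34, 0.31, 0.34, 0.28 and 0.33 and was not called. miR-27a-3p had 0.26, 0.32, 0.32, 0.27, 0.25 and 0.37. miR-24-2-5p was not called without control 1 (0.34), TGF-β 2 (0.46) or TGF-β 3 (0.45). miR-27b-5p had 0.0894 without control 2, 0.00130 without control 3 and 0.0425 without TGF-β 1.

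With the replicate number as a block, 60 miRNAs were called instead of 58, and miR-23b-3p (0.20) was called, with an adjusted p of 0.0304. Between same-numbered arrays, deviations from the group mean had correlations of 0.129, 0.111 and -0.027 over 1282 miRNAs. Arrays of unlike number were not compared, so pairing by number was not tested.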
